A study of Mus musculus with 6 samples.

Results

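Intermediate filament genes were examined in mRNA-sequencing data from the hippocampus of 3-month-old mice. The set was fixed by gene name and held 8 of the 17385 genes in the deposited table. Of these, 4 are described as astrocytic (Gfap, Vim, Nes and Synm) and 4 as neuronal (Nefl, Nefm, Nefh and Ina). All 8 passed the filter on low counts, which left 13937 genes for testing. The study compared 3 5xFAD samples with 3 WT samples, each 1 hippocampal library made from ribosomal-RNA-depleted total RNA. 5xFAD mice, a B6 congenic line, carry mutated human transgenes of familial Alzheimer's disease, among them APP with the Swedish, Florida and London mutations, driven in neurons by the mouse Thy1 promoter, and WT mice lacked these transgenes. Mice of both genotypes were perfused with phosphate-buffered saline before the tissue was taken, and the study's methods give their sex in more than one way, as female in one place and as male and female littermates in another. The question addressed was which mRNAs differ between the genotypes at an early stage of amyloid pathology.

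Intermediate filaments are rope-like polymers of coiled-coil proteins that give a cell mechanical strength. In astrocytes the filament network is built mainly of glial fibrillary acidic protein (Gfap) with vimentin, nestin and synemin, and the build-up of Gfap is the classical sign of reactive astrocytes near amyloid plaques. In neurons the light, medium and heavy neurofilament chains co-assemble with alpha-internexin, fill large axons and set axon calibre. Bulk tissue was sequenced, so that more or fewer cells of a type and more or less mRNA per cell cannot be told apart in any of the values given here.

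The libraries held 18997677 to 23873280 counts in 5xFAD and 21440700 to 22132716 counts in WT. Levels are given as CPM, that is counts relative to the library total scaled by the trimmed mean of M-values (TMM). Differences are log2 fold changes of 5xFAD over WT from edgeR's quasi-likelihood test, with p-values adjusted over all 13937 genes by the Benjamini-Hochberg method and a threshold of 0.05. Of these genes 106 passed (0.761%), 93 higher (0.667%) and 13 lower (0.0933%) in 5xFAD. In base composition 2 of the 5xFAD libraries stood apart. The Spearman correlation of a gene's deviation from the WT mean with its GC content was -0.53 and -0.66 in 5xFAD replicates 1 and 2, against -0.07 in 5xFAD replicate 3 and -0.06 to 0.06 in the WT libraries. For the filament genes, log2 differences between 5xFAD replicate 3 alone and the WT libraries are therefore given too, with no p-value, since 1 library has no spread of its own. The listed markers of astrocytes, neurons, oligodendrocytes and microglia were all in the table. No marker listed for any cell type was at 0 in every library, though not all passed the filter on low counts.

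Gfap was the 1 filament gene that passed the test, and it was higher in 5xFAD. Its level was 1000.2, 985 and 1060 CPM in the 5xFAD libraries, against 402, 377 and 427 CPM in the WT libraries. The lowest 5xFAD library lay more than 2-fold above the highest WT library, and the groups did not overlap, which held for 13.2% of all genes tested in this direction. The means were 1015 ± 39.7 CPM in 5xFAD and 402 ± 25.1 CPM in WT (SD, n = 3 each), a 2.52-fold ratio of means. The log2 fold change was 1.34 with a standard error of 0.08 and a 95% interval of 1.15 to 1.52 (edgeR, adjusted p = 4.8e-04), and Gfap ranked 6 among all genes by p-value. In 5xFAD replicate 3 alone against WT the log2 fold change was 1.41, and with a term for GC content and length in each library it was 1.52 (adjusted p = 2.3e-04, edgeR). The counts behind these levels were 17602 to 26099 in 5xFAD and 8136 to 9353 in WT. Only 86 genes had a larger mean level than Gfap in 5xFAD, against 362 genes in WT.

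**Figure D1:**
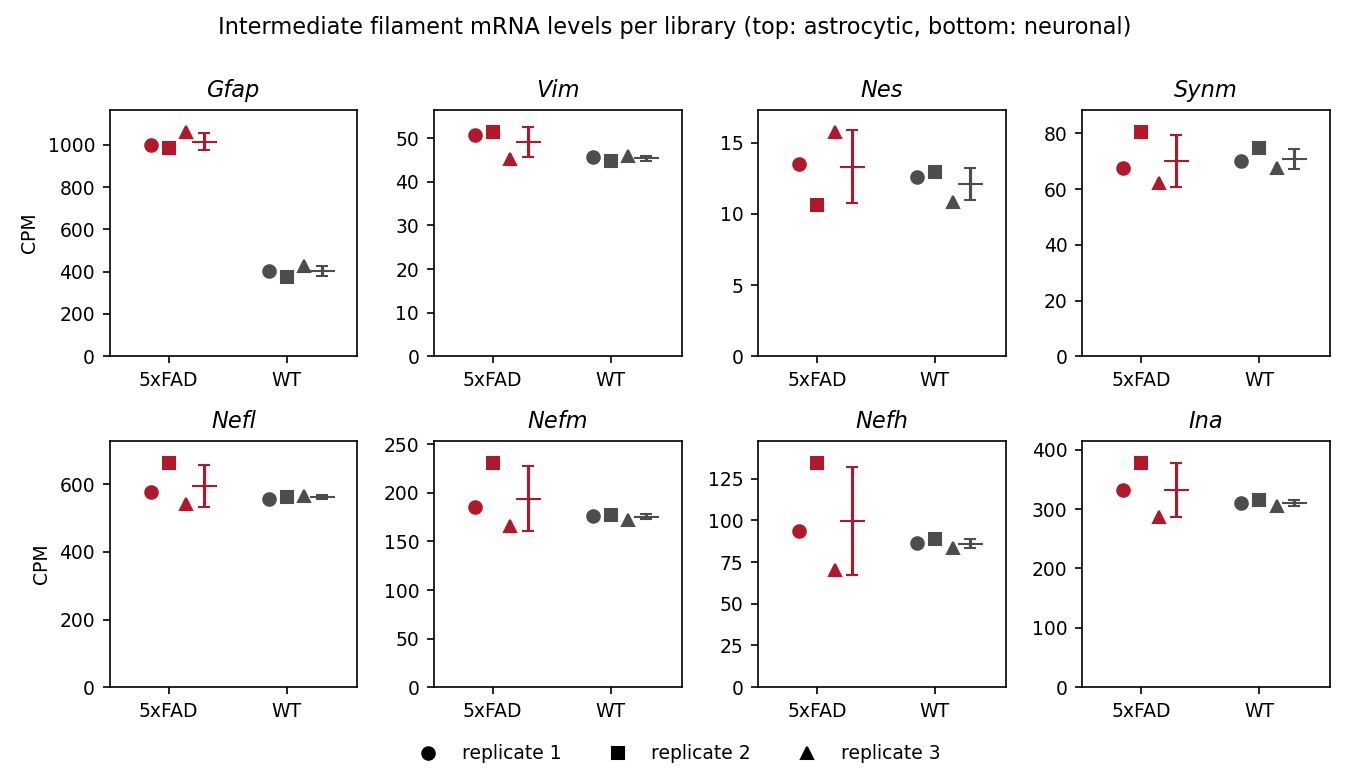
CPM of the 8 filament genes in each library (points, with replicates marked by shape) and the mean with SD (bars) for 5xFAD on the left and WT on the right, on axes that start at 0. For Gfap the 5xFAD points at 985 to 1060 CPM lie above the WT points at 377 to 427 CPM, and the groups overlap for the other 7 genes.

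The Gfap gene (ENSMUSG00000020932) lies on the minus strand at chr11:102887336-102900912 of mm10. RefSeq places the start of its mRNA inside that span, and the window from 250 bases before to 50 bases after this start (GRCm38.p6) had a GC content of 55.7% and 3 CpG dinucleotides. The sequence is shown with that of the Vim window because these 2 genes encode astrocyte filament proteins that assemble together, of which Gfap passed the test and Vim did not. Capitals mark a match to the STAT-factor letters TTCNNNGAA in Gfap and to the TATA-box letters TATAAA in Vim, both searched on both strands.
Gfap promoter, chr11:102897151-102897450, minus strand: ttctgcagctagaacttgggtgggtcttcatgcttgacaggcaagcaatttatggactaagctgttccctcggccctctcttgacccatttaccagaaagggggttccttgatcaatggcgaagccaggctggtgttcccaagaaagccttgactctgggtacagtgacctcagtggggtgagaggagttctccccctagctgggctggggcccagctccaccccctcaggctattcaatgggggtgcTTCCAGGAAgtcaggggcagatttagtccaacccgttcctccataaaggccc
Vim promoter, chr2:13574061-13574360, plus strand: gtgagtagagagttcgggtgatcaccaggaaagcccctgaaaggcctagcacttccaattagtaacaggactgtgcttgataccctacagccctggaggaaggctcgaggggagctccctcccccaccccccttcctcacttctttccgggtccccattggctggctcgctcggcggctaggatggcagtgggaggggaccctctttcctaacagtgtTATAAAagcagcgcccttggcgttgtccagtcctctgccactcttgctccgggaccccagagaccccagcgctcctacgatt
The Gfap match runs from 2 bases before the start base to 6 bases after it, and TTCNNNGAA was found in 8.30% of the 32851 RefSeq promoter windows. The Vim match runs from 32 to 27 bases before the start, and TATAAA was found in 13.6% of the windows. The Vim window held 11 CpG dinucleotides and no TTCNNNGAA. Neither window held the AP-1 letters TGANTCA, which do not overlap the STAT letters and were found in 7.81% of windows. These are matches of letters and not measured binding.

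Vim, Nes and Synm, the other filament genes described as astrocytic, did not pass the test. Vim encodes vimentin, which pairs with Gfap in reactive astrocytes and is also made by endothelial cells, fibroblasts and microglia. Its level was 50.7, 51.4 and 45.3 CPM in 5xFAD, against 45.6, 44.7 and 45.9 CPM in WT. Replicates 1 and 2 of 5xFAD lay above every WT library, while replicate 3 fell within the WT range, so the groups overlapped. The log2 fold change was 0.11 with a 95% interval of -0.08 to 0.31 (edgeR, adjusted p = 0.43), an interval whose upper end lies below the lower end for Gfap. It was 0.01 in 5xFAD replicate 3 alone and 0.24 with the GC and length term (edgeR, adjusted p = 0.30). Limma-voom with library quality weights, a fit that called 7378 of all genes (52.9%), also called Vim (0.15, adjusted p = 0.015).

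Nes encodes nestin, a large filament protein of neural progenitors that is also found in endothelial cells and in reactive astrocytes. It was the least abundant of the 8 mRNAs, also per transcript length, at 13.5, 10.6 and 15.8 CPM in 5xFAD, against 12.6, 12.9 and 10.8 CPM in WT. The highest and the lowest library were both 5xFAD, and the groups overlapped. Nes differed by a log2 fold change of 0.14 with a 95% interval of -0.24 to 0.52 (edgeR, adjusted p = 0.60), and had the widest interval of the 4 astrocytic genes, with 190 to 388 counts per library. In 5xFAD replicate 3 alone it was 0.40, without that library -0.00027, and with the GC and length term 0.33 (edgeR, adjusted p = 0.20).

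Synm encodes synemin, which cannot form filaments alone and joins Gfap and vimentin to other cytoskeletal proteins. Its level was 67.5, 80.5 and 62.3 CPM in 5xFAD, against 70.1, 74.7 and 67.7 CPM in WT. Again a 5xFAD library was the highest and another the lowest. The log2 fold change was -0.02 with a 95% interval of -0.27 to 0.24 (edgeR, adjusted p = 0.94), its sign turned with the GC and length term (0.04), and in 5xFAD replicate 3 alone it was -0.17. Short stretches of Synm exons, 84 and 426 bp, overlap exons of Ttc23 and Gm45102 on the opposite strand. Whether strand was used in counting is not stated in the sources at hand, and reads from such overlaps could have been counted to either gene or left out.

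The 4 neuronal filament genes did not pass the test either, and none had an unadjusted p under 0.05, which 18.9% of all genes tested had. Each of 4 other fits (DESeq2, edgeR's exact test, limma-voom, and limma-voom weighted by library quality) likewise called 0 of the 4, where they called 3.64%, 4.10%, 0.732% and 52.9% of all genes. Nefl, the light chain that forms the core of the neurofilament, was at 578, 663 and 542 CPM in 5xFAD, against 556, 563 and 567 CPM in WT. Replicate 2 of 5xFAD was the highest and replicate 3 the lowest, with the WT libraries between them. Its log2 fold change was 0.08 with a 95% interval of -0.13 to 0.29 (edgeR, adjusted p = 0.58).

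Nefm, the medium chain, whose long tail projects from the filament, was at 186, 231 and 166 CPM in 5xFAD, against 176, 177 and 172 CPM in WT. The same order of the 5xFAD libraries was seen, and the groups overlapped. The log2 fold change was 0.15 with a 95% interval of -0.14 to 0.43 (edgeR, adjusted p = 0.47). Nefl and Nefm are neighbours on chromosome 14, Nefl on the plus strand at chr14:68083863-68089095 and Nefm on the minus strand at chr14:68082590-68124846 (mm10). One Nefm transcript of 3680 bp reaches across Nefl and shares 1108 bp with its exons, which is 32.8% of the exon length of Nefl and 19.2% of that of Nefm, whereas the other Nefm transcript of 3334 bp shares none. The counts of both genes are uncertain to the extent that reads from the shared stretch were dropped or given to one gene.

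Nefh, the heavy chain, which carries many phosphorylation repeats and is typical of thick, myelinated axons, was at 93.5, 134 and 70.5 CPM in 5xFAD, against 86.2, 89.1 and 83.2 CPM in WT. It had the widest spread of the 8 genes in 5xFAD, with a coefficient of variation of 32.6%, against 3.46% in WT. For Nefh the log2 fold change was 0.21 with a 95% interval of -0.28 to 0.69 (edgeR, adjusted p = 0.55). Ina, which encodes alpha-internexin, the chain that appears early in neuronal development and remains in adult central axons, was at 332, 378 and 287 CPM in 5xFAD, against 311, 316 and 306 CPM in WT. Its log2 fold change was 0.10 with a 95% interval of -0.15 to 0.34 (edgeR, adjusted p = 0.58). For both genes the WT libraries lay between the lowest and highest 5xFAD libraries. Ina shares 456 bp, or 14.1% of its exon length, with Nt5c2 on the opposite strand.

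**Figure D2:**
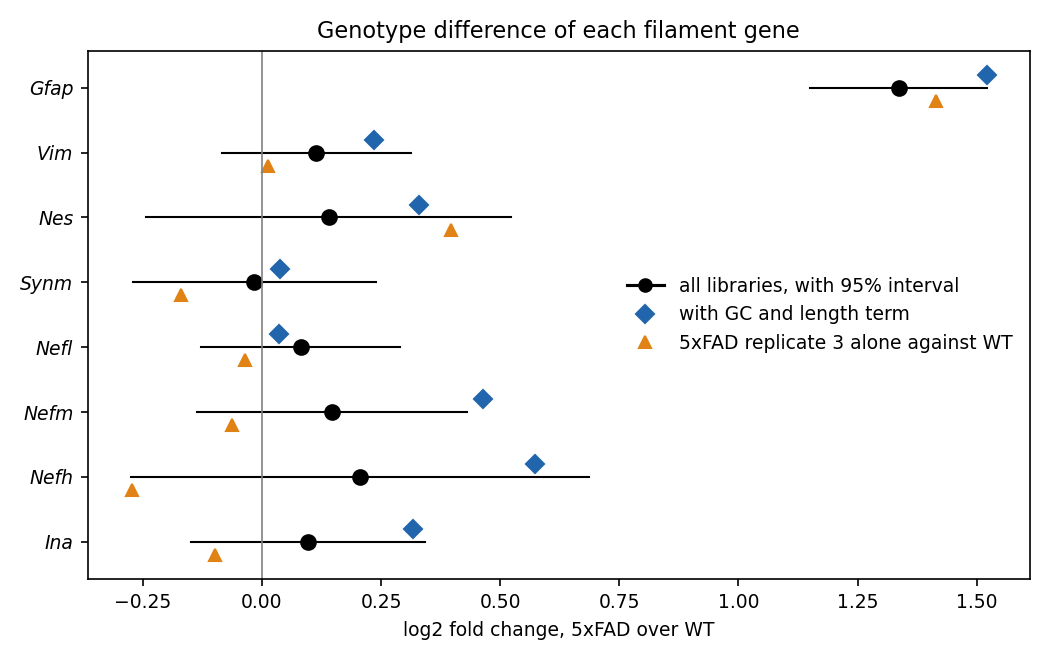
Log2 fold change of 5xFAD over WT for each filament gene, with the 95% interval from all 6 libraries (black), the value with a GC and length term (blue diamonds) and the value of 5xFAD replicate 3 alone against WT (orange triangles). All 3 values of Gfap lie between 1.34 and 1.52, while the intervals of the other 7 genes include 0.

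A difference as large as that of Gfap lay outside the 95% interval of every other gene of the 8. The highest upper end among these was 0.69, that of Nefh. The same contrast was seen within libraries. Per transcript length the ratio of Gfap to Vim was 16.3, 15.9 and 19.4 in 5xFAD, against 7.30, 6.98 and 7.71 in WT. The ratio of Gfap to Nefl was 2.21, 1.9 and 2.50 in 5xFAD, against 0.924, 0.854 and 0.962 in WT. Both ratios were higher in all 3 5xFAD libraries than in any WT library. A two-sided exact permutation test gave p = 0.1 for each, the smallest value that 3 against 3 libraries allow. Groups without overlap always give this value, so it adds nothing to the order of the libraries.

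Levels of different genes were compared as CPM per kilobase of the longest coding transcript in GENCODE M21. Gfap was the most abundant filament mRNA in 5xFAD, at 383 ± 15.0 CPM per kb, and second to Nefl in WT, at 152 ± 9.50 CPM per kb (SD, n = 3 each). Nefl stood at 176 ± 18.4 CPM per kb in 5xFAD and 166 ± 1.64 CPM per kb in WT (SD, n = 3 each), so that Gfap and Nefl were neighbours in the order of both groups. In each 5xFAD library Gfap was above Nefl, and in each WT library it was below, by 0.854- to 0.962-fold. That order in WT depends on the length used: over the union of all exons Gfap was behind Nefl and Ina in WT, with 95.3 ± 5.96 CPM per kb against 96.0 ± 1.61 CPM per kb for Ina (SD, n = 3 each), and Gfap and Ina then did not differ beyond their spread.

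The rest of the order was the same in both groups. Ina followed with 103 ± 13.9 CPM per kb in 5xFAD and 96.0 ± 1.61 in WT, then Nefm with 52.8 ± 9.02 in 5xFAD and 47.6 ± 0.719 in WT. Nefh had 24.9 ± 8.11 CPM per kb in 5xFAD and 21.6 ± 0.745 in WT, and Vim 22.4 ± 1.53 in 5xFAD and 20.7 ± 0.286 in WT (SD, n = 3 each). Nefh and Vim did not differ beyond their spread in 5xFAD. Synm and Nes closed the order, with 8.96 ± 1.2 and 2.17 ± 0.420 CPM per kb in 5xFAD, against 9.06 ± 0.452 and 1.98 ± 0.184 in WT (SD, n = 3 each).

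Gfap made up 49.8%, 45.6% and 53.9% of the summed filament mRNA per length in 5xFAD, against 29.6%, 28.0% and 30.9% in WT. The summed astrocytic genes stood at 1.19, 0.996 and 1.38 times the summed neuronal genes in 5xFAD, against 0.557, 0.521 and 0.585 times in WT, and these groups did not overlap. Without Gfap the ratio did overlap: Vim, Nes and Synm together were at 0.0978, 0.0867 and 0.1 times the neuronal sum in 5xFAD, against 0.0965, 0.0957 and 0.0951 times in WT. As a share of all counts in a library, the 8 genes took 0.230% to 0.238% in 5xFAD and 0.167% to 0.171% in WT.

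**Figure D3:**
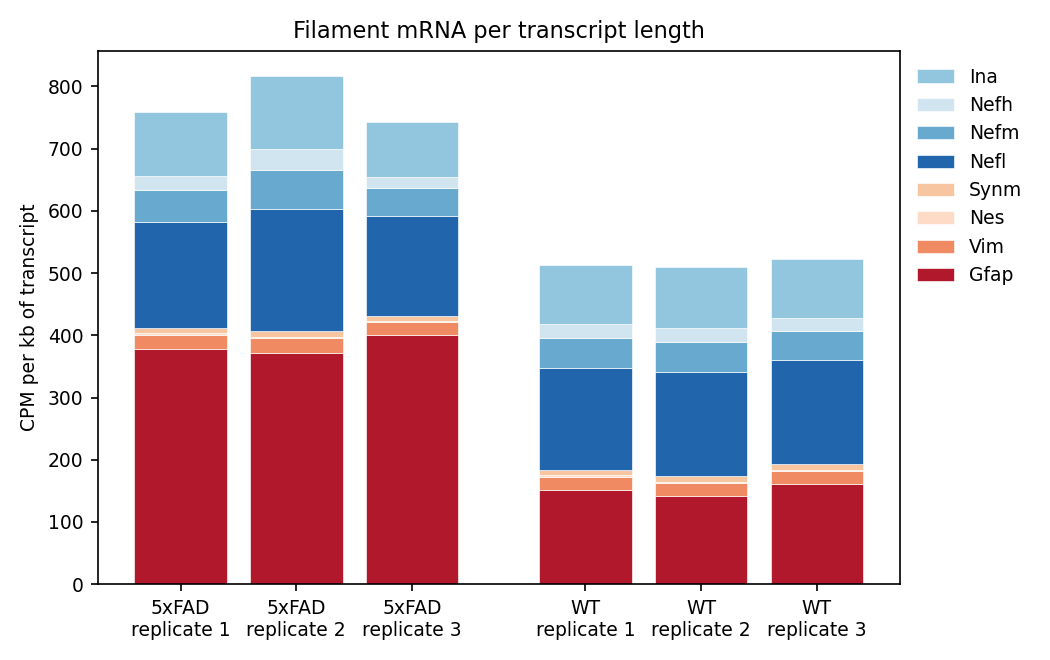
Stacked CPM per kb of the longest coding transcript for the 8 filament genes in each library, 5xFAD on the left and WT on the right. The Gfap block is 372 to 400 CPM per kb high in 5xFAD and 142 to 161 in WT, and the blocks of the neuronal genes are of similar height in both groups.

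The neurofilament chains kept similar proportions in both genotypes. Nefl was at 3.39, 3.13 and 3.56 times Nefm per length in 5xFAD, against 3.43, 3.46 and 3.58 times in WT. Nefl was at 1.67, 1.68 and 1.81 times Ina in 5xFAD, against 1.71, 1.71 and 1.78 times in WT. Nefl to Nefh varied most, at 7.31, 5.83 and 9.09 in 5xFAD, against 7.62, 7.47 and 8.05 in WT. The groups overlapped for each of these ratios, and the spread was wider in 5xFAD than in WT for all of them.

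The 5xFAD libraries differed among themselves in the neuronal genes more than the genotypes did. Nefl, Nefm, Nefh and Ina were each highest in 5xFAD replicate 2 and lowest in 5xFAD replicate 3, as were Vim and Synm, whereas Gfap and Nes had the opposite order. Relative to the WT mean, 5xFAD replicate 2 stood at log2 differences of 0.24 (Nefl), 0.40 (Nefm), 0.64 (Nefh) and 0.28 (Ina). For 5xFAD replicate 3 the same differences were -0.05, -0.08, -0.29 and -0.11. The coefficient of variation was 10.5% to 32.6% for the 4 neuronal genes in 5xFAD, against 0.984% to 3.46% in WT, and for Gfap it was 3.91% in 5xFAD and 6.25% in WT. Counting error at the lowest count was 0.919% to 2.40% for the neuronal genes and 1.11% for Gfap.

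**Figure D4:**
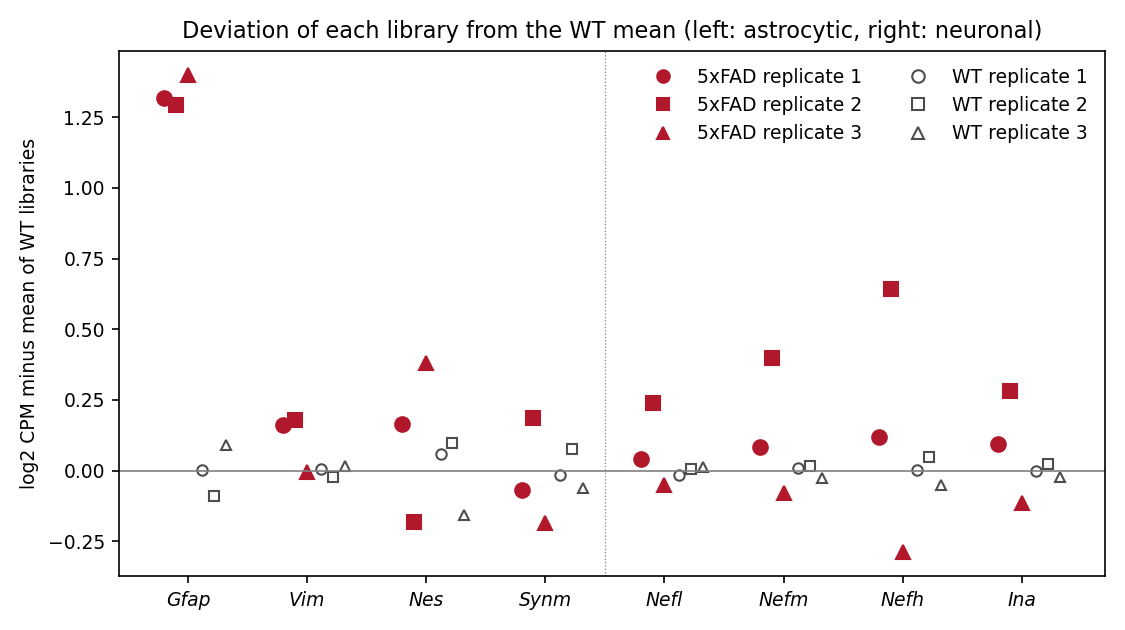
Log2 CPM of each library minus the mean of the WT libraries, for 5xFAD (filled) and WT (open) with replicates marked by shape. The Gfap points of 5xFAD lie together at 1.29 to 1.40, while the neuronal genes fan out in 5xFAD in one order, with replicate 2 highest and replicate 3 lowest.

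Other measures were read beside this spread. The summed level of 12 pan-neuronal markers was 11630, 13960 and 9932 CPM in 5xFAD, against 10720, 11170 and 10400 CPM in WT, in the same order of 5xFAD libraries as the neurofilaments. Single markers differed: 7 of the 12, among them the abundant Snap25, Syt1 and Map2, were highest in 5xFAD replicate 2 and lowest in replicate 3, and the other 5 (Tubb3, Eno2, Syp, Uchl1 and Elavl3) had the opposite order. The GC trend of 5xFAD replicates 1 and 2 was strongest in replicate 2, where genes of higher GC content tended to read lower. Nefm, Nefh and Ina, with 57.8%, 58.4% and 55.5% GC, had their highest level in that library, as did Nefl with 48.8%. The part of the pan-neuronal level or of the GC trend in the spread was not tested. In 5xFAD replicate 3 alone against WT the log2 fold changes were -0.03 for Nefl, -0.06 for Nefm, -0.27 for Nefh and -0.10 for Ina, all below 0. In all 6 libraries with the GC and length term they were 0.04, 0.47, 0.57 and 0.32, with adjusted p from 0.29 to 0.81 (edgeR). Without that term the values were 0.08, 0.15, 0.21 and 0.10, in the same order of genes. Across the 6 libraries the 4 neuronal genes followed each other with Pearson r of 0.962 to 0.992 in log2 CPM. This is a description only, of libraries that differ in depth and base composition. Nes ran against the neuronal genes (r of -0.688 to -0.598), and Synm (0.806 to 0.889) and Vim (0.776 to 0.840) ran with them.

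Across 9431 genes with a mean of at least 10 CPM, the 5 whose log2 CPM was most like that of Gfap over the 6 libraries were Ctss, Mpeg1, Rnase4, Fcer1g and Lgals3bp, with Pearson r of 0.996 to 0.999. Because the 2 genotypes form separate clusters for Gfap, any gene with a clear genotype difference and little spread scores high here. Ctss encodes the lysosomal protease cathepsin S, Mpeg1 a pore-forming protein of macrophages and Fcer1g the common chain of Fc receptors. All 5 were higher in 5xFAD, with log2 fold changes of 0.57 to 2.10 and adjusted p from 3.8e-04 to 0.042 (edgeR). Of the other members Vim was the nearest to Gfap, at rank 1536 with r of 0.661. The 5 genes most like Nefm were Kctd1, Impad1, Ola1, Rnf115 and Nab1 (r of 0.998), none of which passed the test, with log2 fold changes of 0.16 to 0.24. Nefl was at rank 59 in that order, Nefh at 194 and Ina at 294.

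Markers of the cells in which these filaments are made were read beside the members. Of 14 general astrocyte markers 1 was called higher and 0 lower, beside 0.667% and 0.0933% of all genes, with a median log2 fold change of 0.06 against -0.01 over all genes. The called marker was Aqp4, the water channel of astrocyte endfeet, at 328, 363 and 301 CPM in 5xFAD, against 213, 196 and 228 CPM in WT. The groups did not overlap, and the log2 fold change was 0.64 with a standard error of 0.10 (edgeR, adjusted p = 0.037). It was 0.41 with the GC and length term (edgeR, adjusted p = 0.037) and 0.52 in 5xFAD replicate 3 alone. Slc1a2, the main glutamate transporter of astrocytes, was at 0.29 on the log2 scale (edgeR, adjusted p = 0.24), at 0.12 with the GC and length term and at 0.11 in 5xFAD replicate 3 alone. Aldh1l1, a folate enzyme that marks astrocytes broadly, was at -0.23 (edgeR, adjusted p = 0.36), at -0.08 with that term and at 0.08 in replicate 3 alone. The summed level of the 14 markers was 10920 to 12820 CPM in 5xFAD and 10240 to 10730 CPM in WT, and none was at 0. Slc1a2 was the largest part of that sum, with a mean of 4945 CPM in 5xFAD and 4052 CPM in WT. Of the 14 markers, 8 had a log2 fold change above 0. The part of astrocyte number in the Gfap difference was not tested.

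Most microglia markers were higher in 5xFAD, as Gfap was. Of 12 listed, 11 were tested, with 7 called higher and 0 lower, beside 0.667% and 0.0933% of all genes. Csf1r did not pass the filter on low counts. The median of the 11 tested was 0.94 against -0.01 over all genes. Their summed level was 652 to 878 CPM in 5xFAD and 389 to 396 CPM in WT. Tmem119 was at -0.06 (edgeR, adjusted p = 0.86), and its groups overlapped. Tyrobp, the adaptor of the Trem2 receptor, was at 30.6, 23.1 and 40.9 CPM in 5xFAD, against 10.3, 9.63 and 9.27 CPM in WT, with no overlap of the groups. Its log2 fold change was 1.70 (edgeR, adjusted p = 0.016). Cst7, a cystatin of plaque-associated microglia, was higher by 6.46 on the log2 scale (edgeR, adjusted p = 3.5e-04), a value that rests on WT levels of 0.0889 to 0.411 CPM. The part of microglia in the Vim and Gfap values was not tested.

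For the other cell types that make Vim, Nes or Synm no marker was called by edgeR's quasi-likelihood test without the GC and length term. With that term 1.28% of all genes were called. Mki67, from the list of progenitor and immature neuron markers, was then called higher (log2 fold change 1.075, adjusted p = 0.030, edgeR). Without the term Mki67 was at 1.20 (adjusted p = 0.061, edgeR). Other markers of that list went the other way, with Igfbpl1 at -1.66 and Sox2 at -0.26. In that list 2 markers were higher and 2 lower without overlap of the groups, beside 13.2% and 15.1% of all genes. The 12 endothelial and mural markers had a median log2 fold change of -0.25, the 8 meningeal fibroblast markers one of -0.69 and the 10 progenitor and immature neuron markers one of 0.09. Markers with an unadjusted p under 0.05 numbered 3, 4 and 4 in these lists, beside 18.9% of all genes. DESeq2 called 2 in each, the exact test 2, 3 and 2, limma-voom 0 in each, and limma-voom with quality weights 10, 4 and 6. Over all genes these fits called 3.64%, 4.10%, 0.732% and 52.9%, shares that also apply to the lists that follow. Summed levels of endothelial and mural markers were 426 to 448 CPM in 5xFAD and 448 to 513 CPM in WT, those of fibroblast markers 236 to 345 CPM in 5xFAD and 266 to 410 CPM in WT, and those of progenitor markers 170 to 189 CPM in 5xFAD and 162 to 180 CPM in WT. Their part in the Vim, Nes and Synm values was not tested.

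Among markers of neurons rich in neurofilament, such as Pvalb and Slc17a6, 0 of 9 were called (3 with an unadjusted p under 0.05), with a median log2 fold change of -0.26. Slc17a6, the vesicular glutamate transporter of subcortical neurons, was at 0.11 (edgeR, adjusted p = 0.84), and at -0.83 in 5xFAD replicate 3 alone. Of the 12 pan-neuronal markers 0 were called (5 with an unadjusted p under 0.05), with a median of -0.05, and of 18 genes of the axonal cytoskeleton, among them tubulins, kinesins and tau, 0 were called (3 with an unadjusted p under 0.05), with a median of -0.04. DESeq2 and the exact test called 0 in the first list and 1 in each of the other lists, limma-voom called 0 in all 3, and limma-voom with quality weights called 5, 10 and 10. The summed level of the axonal genes was 17910 to 19270 CPM in 5xFAD and 18120 to 19250 CPM in WT. Of 8 oligodendrocyte markers, read here because myelin surrounds axons rich in Nefh, 0 were called and 4 had an unadjusted p under 0.05. DESeq2 and the exact test called 4, limma-voom 0 and limma-voom with quality weights 6. With the GC and length term Mog was called lower (-0.53, adjusted p = 0.028, edgeR). The oligodendrocyte markers had a median of -0.29 and a summed level of 3976 to 4021 CPM in 5xFAD and 4486 to 5449 CPM in WT. Of 9 ependymal and choroid plexus markers 0 were called (2 with an unadjusted p under 0.05; DESeq2 called 1, the exact test 2, limma-voom 0 and limma-voom with quality weights 5), with a median of -0.04 and a summed level of 215 to 486 CPM in 5xFAD and 140 to 154 CPM in WT. Most of that sum was Ttr, the transthyretin gene of choroid plexus, at 267, 412 and 160 CPM in 5xFAD, against 79.7, 81.1 and 91.5 CPM in WT, with no overlap. Its log2 fold change was 1.73 (edgeR, adjusted p = 0.059), and it was called with the GC and length term (1.55, adjusted p = 0.025, edgeR), as were 1.28% of all genes. The other 8 markers summed to 55.5 to 73.2 CPM in 5xFAD and 52.2 to 72.6 CPM in WT.

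Other intermediate filament genes were also measured. Of 25 listed, including lamins, desmin, peripherin, keratins and lens filament genes, 18 were tested, 0 were called and 2 had an unadjusted p under 0.05, with a median log2 fold change of -0.03. DESeq2, the exact test and limma-voom also called 0, and limma-voom with quality weights called 5. The groups did not overlap for 4 of the 18, with Krt9 and Krt18 higher and Krt73 and Des lower in 5xFAD, beside 13.2% of all genes higher and 15.1% lower without overlap. Des, the filament of muscle cells that marks vascular smooth muscle and pericytes, was at 1.18, 1.79 and 1.99 CPM in 5xFAD, against 2.58, 2.27 and 3.15 CPM in WT, with a log2 fold change of -0.69 (edgeR, adjusted p = 0.25). Lmna, a nuclear lamin, was at -0.18 (edgeR, adjusted p = 0.37) and at 0.12 with the GC and length term.

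Genes for proteins that link, fold or degrade filaments were read at the mRNA level in the same way. Of 18 tested, 0 passed edgeR's quasi-likelihood test, and 3 of them reached an unadjusted p under 0.05. DESeq2 and limma-voom called 0, the exact test called 1 and limma-voom with quality weights 10, with a median log2 fold change of 0.08. Plec, which encodes the linker plectin, was at 167, 122 and 201 CPM in 5xFAD, against 213, 196 and 210 CPM in WT. The groups overlapped and the log2 fold change was -0.34 (edgeR, adjusted p = 0.29), while it was -0.02 both with the GC and length term and in 5xFAD replicate 3 alone. Cryab, the small heat shock protein that binds Gfap filaments, was at -0.09 (edgeR, adjusted p = 0.50), and Cdk5, a kinase of neurofilament tails, was at -0.29 (edgeR, adjusted p = 0.23) and at -0.11 in replicate 3 alone.

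Transcription factors known to act on the Gfap gene were measured at the mRNA level. Of 13 tested, 0 were called and 6 had an unadjusted p under 0.05, with a median log2 fold change of 0.13. DESeq2 and the exact test called 1, limma-voom 0 and limma-voom with quality weights 8. Stat3, the factor through which cytokines of the interleukin-6 family drive Gfap, was at 65.7, 55.2 and 71.9 CPM in 5xFAD, against 52.8, 52.0 and 52.9 CPM in WT. All 5xFAD libraries were above all WT libraries, by little in replicate 2, and the log2 fold change was 0.29 with a standard error of 0.11 (edgeR, adjusted p = 0.24). It was called with the GC and length term (0.38, adjusted p = 0.044, edgeR), a fit that called 1.28% of all genes, and was at 0.47 in 5xFAD replicate 3 alone.

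Other factors on that list behaved in different ways. Nfia, a nuclear factor I protein needed for gliogenesis, was at 0.34 (edgeR, adjusted p = 0.25), against 0.11 with the GC and length term and 0.07 in 5xFAD replicate 3 alone. Jun, a subunit of AP-1, was at 0.22 (edgeR, adjusted p = 0.26) and at 0.42 with that term, and Sox9, an astrocyte identity factor, at -0.03 (edgeR, adjusted p = 0.84). Hes5, a Notch effector that holds back differentiation, was at 2.22, 1.34 and 3.61 CPM in 5xFAD, against 6.27, 8.71 and 4.38 CPM in WT. Its groups did not overlap, and the log2 fold change was -1.41 with a standard error of 0.38 (edgeR, adjusted p = 0.18), against -0.82 in 5xFAD replicate 3 alone. In all, 5 of the 13 factors were higher and 3 lower without overlap of the groups, beside 13.2% and 15.1% of all genes.

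**Figure D5:**
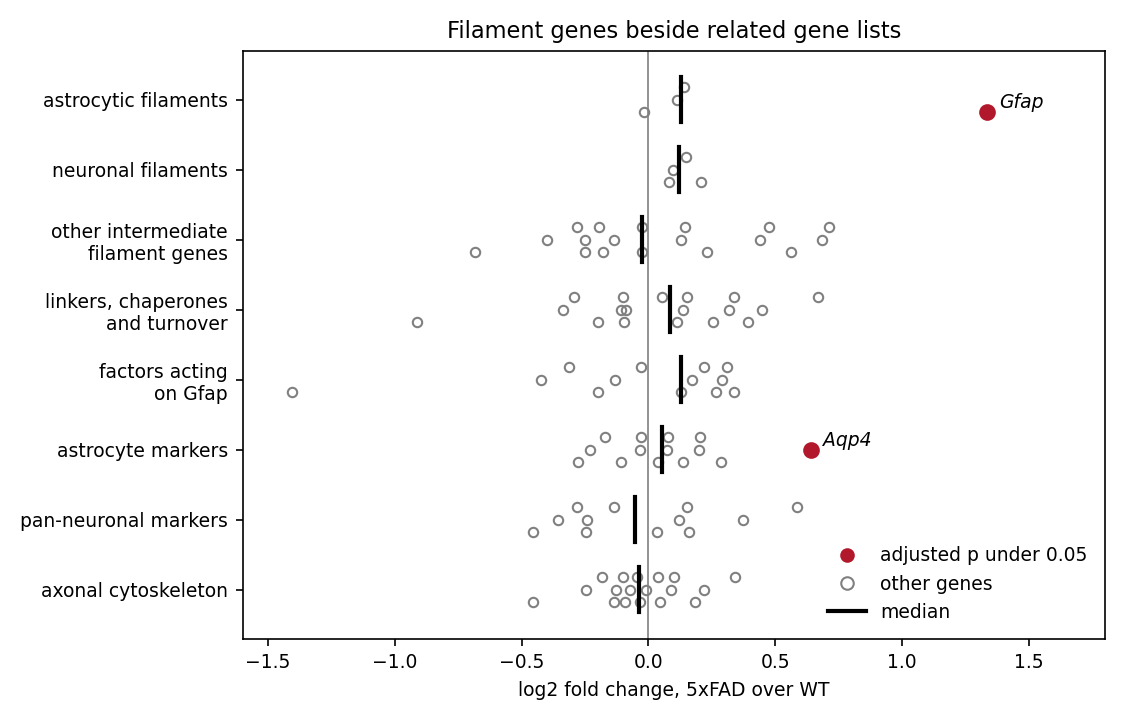
Log2 fold change of 5xFAD over WT for the genes of 8 lists (points, with vertical jitter to separate them), with the list median (black bar) and genes with an adjusted p under 0.05 in red. Gfap at 1.34 and Aqp4 at 0.64 are the called genes in these lists, and all list medians lie between -0.05 and 0.13.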

How the data were processed

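The authors isolated total RNA from hippocampus, depleted ribosomal RNA and sequenced paired-end libraries. Per the submitters' processing notes and the study's methods, trimming used cutadapt 1.9.3, alignment HISAT2 2.0.4 on mm10, and gene counting HTSeq 0.9.1. The authors' own test was that of edgeR 3.16.5. The deposited table holds raw counts per gene, which were used here, and 6 columns of values normalized by the authors, which were not. Neither the annotation release nor the use of strand in counting is stated in the sources at hand.

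Raw counts were filtered with filterByExpr (minimum count 10), scaled by TMM and fitted with the quasi-likelihood test of edgeR 4.0.16 (R 4.3.3), with Benjamini-Hochberg adjustment over 13937 genes and no covariate. CPM in the plots and text are scaled by TMM, and log2 differences between libraries add a prior count of 2. DESeq2 1.42.0, limma 3.58.1, edgeR's exact test, other scalings and filters, a replicate block, each library left out, 5xFAD replicate 3 alone and a GC and length term (natural splines with 4 degrees of freedom, for the 98.3% of genes with both values) were alternatives. The fits were tested on simulated data with 200 changed genes. Same-numbered 5xFAD and WT libraries did not deviate together (r of -0.036 to -0.0077), so that the numbers were not taken as pairs. No 2 libraries of the same genotype agreed within sampling noise. The labels name replicates but no animals, so p-values measure the spread between these samples.

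Gene coordinates, lengths and GC content came from GENCODE M21 (mm10), and promoter sequences from the RefSeq table (GRCm38.p6), which matched 5 of the 8 genes. The members, the gene lists and the tests were chosen with earlier results of these data known. All 8 members were named. From each list, called genes were named by smallest adjusted p, and the other genes given with values were picked for their known roles after the values had been seen. The genes most like Gfap and Nefm were the 5 with the highest Pearson r.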

Additional observations from a re-analysis of the deposited data

How the results depend on the processing

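Gfap was called higher in 5xFAD under all 19 alternatives, with log2 fold changes of 1.29 to 1.52 and adjusted p from 6.7e-44 to 0.018. The number of filament genes called stayed at 1 in 18 of them and was 2 with limma-voom's library quality weights, where Vim was also called (log2 fold change 0.15, adjusted p = 0.015) beside 7378 of all genes. Against 106 genes called over the whole table, 69 were called with library totals, 507 with DESeq2 (65.3% of them higher, against 87.7%), 572 with edgeR's exact test (63.6% higher) and 179 with the GC and length term, while the quality weights gave 49.7% higher. With the replicate block 20 genes were called, and the block changed no member's call (Gfap 1.34, adjusted p = 0.0087). Leaving out 1 library gave 12 to 3229 calls: 20, 227 and 3229 without 5xFAD replicates 1, 2 and 3 (52.6% higher without the last), and 12, 17 and 14 without WT replicates 1, 2 and 3 (76.5% higher without WT replicate 2). In 5xFAD replicate 3 alone 74.0% of 123 calls were higher, in a fit where that library is assumed to vary like the WT libraries, which alone gave the spread. The cause of these shifts was not tested.

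Directions turned only for members that were not called. Synm was at 0.039 with the GC and length term, 0.029 with that term and the replicate block, and -0.12 to 0.062 with 1 library left out. With 1 library left out Nefh was at -0.068 to 0.40, Ina at -0.00097 to 0.19 and Nes at -0.00027 to 0.28. In 5xFAD replicate 3 alone Nefl was at -0.035, Nefm at -0.062, Nefh at -0.27 and Ina at -0.10. The lowest count behind a neuronal value was 1735, and the lowest behind any member was 190, for Nes.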

Other observations

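Genes next to Gfap on chromosome 11 gave no call. Of the 8 nearest genes of the table, up to 93135 bp away, 6 were tested. Ccdc103, at 2120 bp, had a mean of 1.54 CPM in 5xFAD and 2.18 CPM in WT, with a log2 fold change of -0.50 (edgeR, adjusted p = 0.27). Eftud2, a spliceosome component at 6351 bp, had a mean of 89.1 CPM in 5xFAD and 96.1 CPM in WT, with a log2 fold change of -0.11 (edgeR, adjusted p = 0.56). The log2 fold changes of C1ql1, Higd1b, Gjc1 and Dcakd were -0.72 to -0.04, and Fam187a and Kif18b were not tested because of low counts.

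The RefSeq promoter windows of the other members that had an entry differed in base composition. Nes held 18 CpG dinucleotides, Synm 33 and Ina 32, against 3 in Gfap and 11 in Vim. The GC-box letters GGGCGG, searched on both strands and present in 35.7% of all windows, matched 2 times in Nes and 2 times in Ina. The letters CCAAT, present in 37.4% of windows on either strand, matched 2 times in Vim and 1 time in Synm.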
